A study of Rattus norvegicus with 10 samples.

Results

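The cortical projection neuron genes described here are 29 genes that mark the glutamatergic neurons of cortex, hippocampus and related forebrain tissue, chosen by name. Of them 28 had a row under their name in the deposited table of 32623 rat genes, and all 28 had the mean of at least 10 normalized counts over the 10 samples that was required for testing, as did 15597 genes in all. Rasgrf2 had no row under that name and was not analysed here. The member nearest to the minimum was Neurod2, with a mean of 11.4 normalized counts, followed by Neurod1 with 31.8. The minimum did not use the difference between the groups. The list was drawn up when results of these data were known. Counts of its genes called are therefore a description and not an independent test of the list. The samples were supraoptic nuclei of male Sprague Dawley rats (age not given in the sources used here), an outbred stock. They were taken as punches of 1 mm from frozen brain sections of 100 µm. Each rat carried an adeno-associated virus expressing a hairpin RNA directed at Opn3 (shOpn3) on one side and the non-targeting hairpin virus (shControl) on the opposite side, and tissue was taken 2 weeks later, so both groups had been injected and both carried a virus. There were 5 samples in each group, numbered 1 to 5 in both. Which side received which virus, and whether equal numbers mark the same rat, was not given in the sources used here, and no uninjected nucleus was analysed here.

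Projection neurons of the cortex send axons out of their area and release glutamate, which they load into vesicles mainly with the transporter encoded by Slc17a7. Their identity is set by transcription factors such as Tbr1, Fezf2, Bcl11b and the NeuroD family, and their spiny dendrites hold large amounts of proteins such as the kinase encoded by Camk2a and the calmodulin-binding neurogranin. The supraoptic nucleus is a hypothalamic nucleus of neurosecretory cells that make vasopressin and oxytocin, and hypothalamic glutamate neurons use mostly another transporter, encoded by Slc17a6. Several of the listed genes are also active outside projection neurons: Mef2c and Ptk2b in microglia and other myeloid cells, Bcl11b in striatal spiny neurons, and Satb1, Lamp5 and Cnr1 in interneurons.

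Promoters of the members are shown first, since NeuroD-type factors, which are themselves members, bind short motifs called E-boxes. Promoter sequences of 19 of the 28 genes were found by symbol in a RefSeq table of assembly GRCr8, and the 250 bases before the annotated start were searched on both strands for the E-boxes CAGATG and CAGCTG. The factor genes Neurod2 and Neurod6 are given because both rose and both hold CAGATG, Slc17a7 because it had the largest rise, and Fezf2 because it was the 1 gene called lower without the replicate block. Each is written on the strand of the gene with E-boxes in capitals.
Neurod2, chr10:83824278-83824527, minus strand: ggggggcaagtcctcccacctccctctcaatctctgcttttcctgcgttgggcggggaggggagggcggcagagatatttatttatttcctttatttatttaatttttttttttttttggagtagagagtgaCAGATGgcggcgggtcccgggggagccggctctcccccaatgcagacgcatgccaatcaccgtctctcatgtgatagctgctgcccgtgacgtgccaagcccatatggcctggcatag
Neurod6, chr4:86180156-86180405, minus strand: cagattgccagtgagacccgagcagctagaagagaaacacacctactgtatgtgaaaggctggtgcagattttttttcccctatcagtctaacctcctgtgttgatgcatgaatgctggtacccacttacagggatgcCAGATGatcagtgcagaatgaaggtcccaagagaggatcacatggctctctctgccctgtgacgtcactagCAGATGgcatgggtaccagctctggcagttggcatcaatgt
Slc17a7, chr1:104785955-104786204, plus strand: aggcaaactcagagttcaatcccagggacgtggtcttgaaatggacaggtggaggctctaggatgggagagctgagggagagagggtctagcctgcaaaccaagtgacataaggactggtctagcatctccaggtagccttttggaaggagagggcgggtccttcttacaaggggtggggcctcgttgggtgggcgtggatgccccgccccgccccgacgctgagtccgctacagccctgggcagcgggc
Fezf2, chr15:15203943-15204192, plus strand: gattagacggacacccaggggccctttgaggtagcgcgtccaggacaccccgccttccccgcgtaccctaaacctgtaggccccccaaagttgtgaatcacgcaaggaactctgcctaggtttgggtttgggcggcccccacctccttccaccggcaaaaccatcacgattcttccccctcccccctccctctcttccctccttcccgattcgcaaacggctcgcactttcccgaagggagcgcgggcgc
Neurod2 holds the E-box starting 118 bases before its start, and Neurod6 holds copies that begin 112 and 41 bases before its start. No E-box of these letters lies in the window of Slc17a7 or of Fezf2. Over the 19 promoters, 4 (Neurod2, Neurod6, Nrgn and Rgs14) hold CAGATG and 1 (Wfs1) holds CAGCTG, so 5 hold either, while 24.3% of 33469 rat promoters of the same length do. The cyclic AMP response element TGACGTCA lies in the window of Neurod6 alone among the 19 and in 1.59% of all promoters. These are matches of letters and not measured binding sites.

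Reads counted in genes lay between 33158341 and 39958578 per library, and size factors lay between 0.942 and 1.07, so that 1 normalized count is close to 1 read. The target Opn3 fell by 1.82 on the log2 scale in shOpn3 (SE 0.320; limma adjusted p = 0.00226), lower in 5 of 5 pairs of equal numbers but with overlapping groups. The defining magnocellular transcripts were present in all samples, and Avp and Oxt fell by 2.35 and 2.21 on the log2 scale. Summed over 12 oligodendrocyte markers, normalized counts ranged from 775177 to 1317261 in shControl and from 267746 to 501242 in shOpn3. Summed over 14 microglial markers they ranged from 25844 to 34049 and from 41807 to 77785. In bulk tissue, more or fewer cells of a type cannot be told apart from more or less RNA per cell. How much forebrain tissue beside the nucleus each punch held was not measured, and its part in the differences was not tested.

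Most cortical projection neuron transcripts were higher in the shOpn3 punches. With limma on log2(normalized count + 1) and p adjusted over all 15597 genes, 20 of the 28 rose and 1 fell at an adjusted p under 0.05, and 7 did not pass, while 18.8% of all genes tested were called (10.4% higher and 8.48% lower). The median log2 fold change of the 28 genes was 1.23, with a range from -1.61 to 2.88, and the median of all genes tested was -0.02. Changes are given throughout as shOpn3 minus shControl on that scale. The sums of microglial and oligodendrocyte markers above moved with the groups as well, and their part in these counts was not tested. No overlap between groups was seen in 15 of the 28, 14 of them higher and Fezf2 lower, against 8.03% and 7.23% of all genes tested. In 22 of the 28 genes all 5 pairs were higher in shOpn3, against 18.7% of all genes tested. Adding the replicate number as a block to the limma fit gave calls for 25 of the 28 genes, 23 higher and 2 lower (30.3% of all genes). The authors' deposited table gave an adjusted p under 0.05 for 23 of the 28, 22 higher and 1 lower (21.3% of all genes with an adjusted p).

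**Figure D1:**
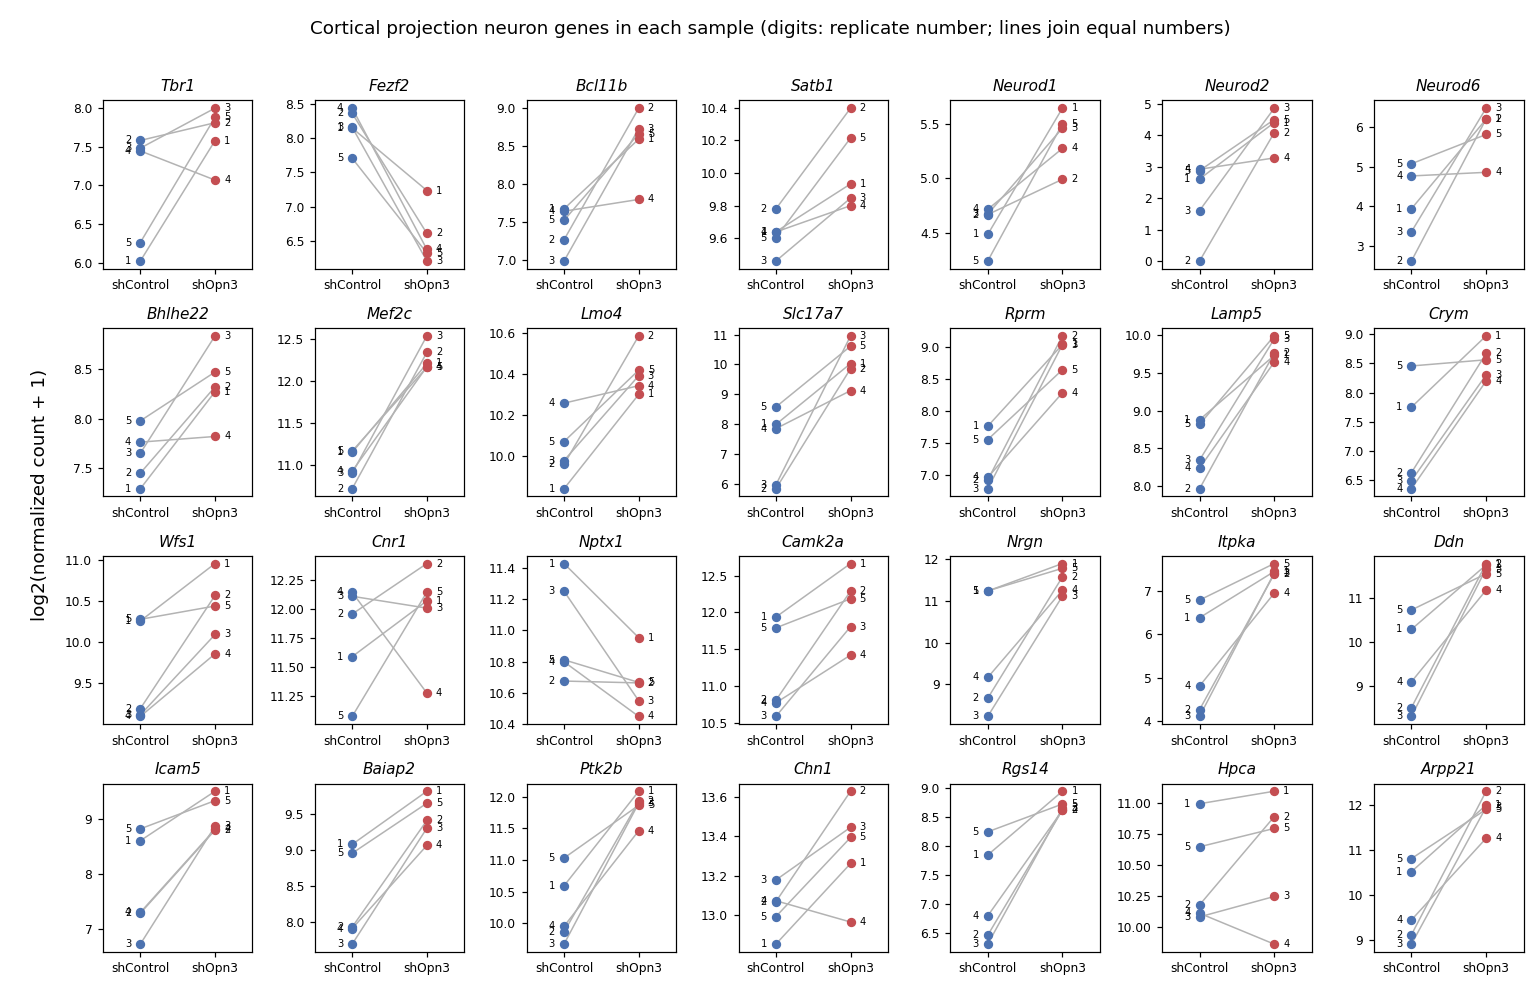
Levels of the 28 genes, as log2(normalized count + 1) on the vertical axis, in 5 shControl samples (blue) and 5 shOpn3 samples (red), each gene with its own scale and lines joining samples of equal number. All 5 lines rise for 22 genes, and all 5 fall for Fezf2 and Nptx1.

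Slc17a7, the vesicular glutamate transporter that defines cortical excitatory neurons, showed the largest rise. In replicate order from 1 to 5, as for all genes below, its normalized counts were 253, 56.0, 61.2, 229 and 380 under shControl and 1046, 928, 1991, 556 and 1566 under shOpn3. Every shOpn3 sample lay above every shControl sample, and the shControl samples themselves spread widely. Means of the groups came to 196 ± 138 and 1217 ± 564 (SD, n = 5 each). The log2 change, written here and below with the SE of limma, was 2.88 ± 0.528 (adjusted p = 0.00285 by limma), and an exact permutation test (two-sided) gave p = 0.00794, the smallest that 5 against 5 unpaired samples allow; a sign-flip test over 5 pairs could not go below 0.0625 and was not run. The transporter of hypothalamic glutamate neurons, Slc17a6, had mean normalized counts of 8915 ± 2107 and 7960 ± 2471 (SD, n = 5 each), with a log2 change of -0.18 ± 0.207 and an adjusted p of 0.586 by limma. The difference between the changes of these 2 transporters was not tested.

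Among the transcription factors 8 of 10 rose, 1 fell and 1 did not pass. The NeuroD factors, basic helix-loop-helix proteins that drive and maintain neuronal differentiation, were low in every sample. Neurod2 had normalized counts of 5.10, 0, 2.04, 6.55 and 6.33 in shControl and of 20.1, 15.9, 28.0, 8.69 and 21.6 in shOpn3. Neurod6 had 14.3, 5.09, 9.18, 26.2 and 32.7 in shControl and 72.9, 73.3, 88.8, 28.0 and 55.5 in shOpn3. For Neurod2 the groups did not overlap, whereas for Neurod6 the shOpn3 replicate 4 lay below shControl replicate 5. Neurod1 rose from 21.4, 24.4, 24.5, 25.3 and 17.9 to 48.9, 30.8, 43.0, 37.7 and 44.2, with no overlap. The log2 fold changes were 2.22 for Neurod2 (SE 0.543), 1.97 for Neurod6 (SE 0.458) and 0.82 for Neurod1 (SE 0.188), with limma adjusted p of 0.0134, 0.0103 and 0.00999. The size for Neurod2 rests on few reads: it was 1.15 with a pseudocount of 8 and 3.46 with limma-voom and sample weights, both called.

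Mef2c, a MADS-box factor of excitatory neurons that is also made by microglia, had the smallest adjusted p of the 28 genes. Its normalized counts were 2271, 1681, 1909, 1943 and 2291 in shControl and 4720, 5174, 5929, 4596 and 4576 in shOpn3, so the lowest shOpn3 sample was far above the highest shControl sample. The log2 change was 1.31 ± 0.103 (adjusted p = 4.84e-05 by limma). Of the 14 microglial markers 13 rose and none was at 0 in any sample, with a median log2 fold change of 1.08, and their part in the rise of Mef2c was not tested.

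Bcl11b, a zinc-finger factor of subcerebral projection neurons and of striatal spiny neurons, had 203, 153, 126, 198 and 183 normalized counts in shControl and 385, 511, 423, 221 and 405 in shOpn3. Its groups did not overlap, but shOpn3 replicate 4 stood close to the controls (log2 change 1.14 ± 0.211, adjusted p = 0.00301 by limma). Bhlhe22, a basic helix-loop-helix repressor, had 156, 174, 200, 216 and 251 in shControl and 308, 319, 455, 225 and 353 in shOpn3 (log2 change 0.72 ± 0.184, adjusted p = 0.0172 by limma). Here shOpn3 replicate 4 lay inside the control range. Lmo4, a LIM-domain cofactor, had 914, 993, 1006, 1222 and 1073 in shControl and 1259, 1535, 1341, 1296 and 1366 in shOpn3, a small rise without overlap (log2 change 0.39 ± 0.0902, adjusted p = 0.0105 by limma). Satb1, a chromatin organizer also found in interneurons, had 797, 878, 704, 797 and 778 in shControl and 977, 1347, 920, 891 and 1187 in shOpn3 (log2 change 0.41 ± 0.119, adjusted p = 0.0293 by limma). The groups of Satb1 did not overlap, yet its call was lost without shControl replicate 3 or 4 (adjusted p = 0.0649 and 0.0562) and without shOpn3 replicate 2 or 5 (adjusted p = 0.0560 and 0.0765), each time with the same direction.

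Fezf2, a zinc-finger factor of deep-layer neurons that is also active in the hypothalamus, fell in the fit without a block, and no other member did; Nptx1, described below, joined it with the replicate block. Its normalized counts were 282, 328, 285, 345 and 208 in shControl and 150, 96.6, 72.9, 82.1 and 79.1 in shOpn3, a mean of 290 ± 53.2 against 96.1 ± 31.2 (SD, n = 5 each). Every shOpn3 sample lay below every control (log2 change -1.61 ± 0.203, adjusted p = 0.000413 by limma and p = 0.00794 by the exact permutation test, which treats the samples as unpaired). Tbr1, a T-box factor of early-born cortical glutamate neurons, had 64.2, 190, 178, 173 and 76.0 in shControl and 190, 223, 254, 133 and 234 in shOpn3. Its groups overlapped broadly and it was not called (log2 change 0.71 ± 0.316, adjusted p = 0.146 by limma). The lowest Tbr1 values were those of shControl replicates 1 and 5, which held the highest control values of Slc17a7.

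**Figure D2:**
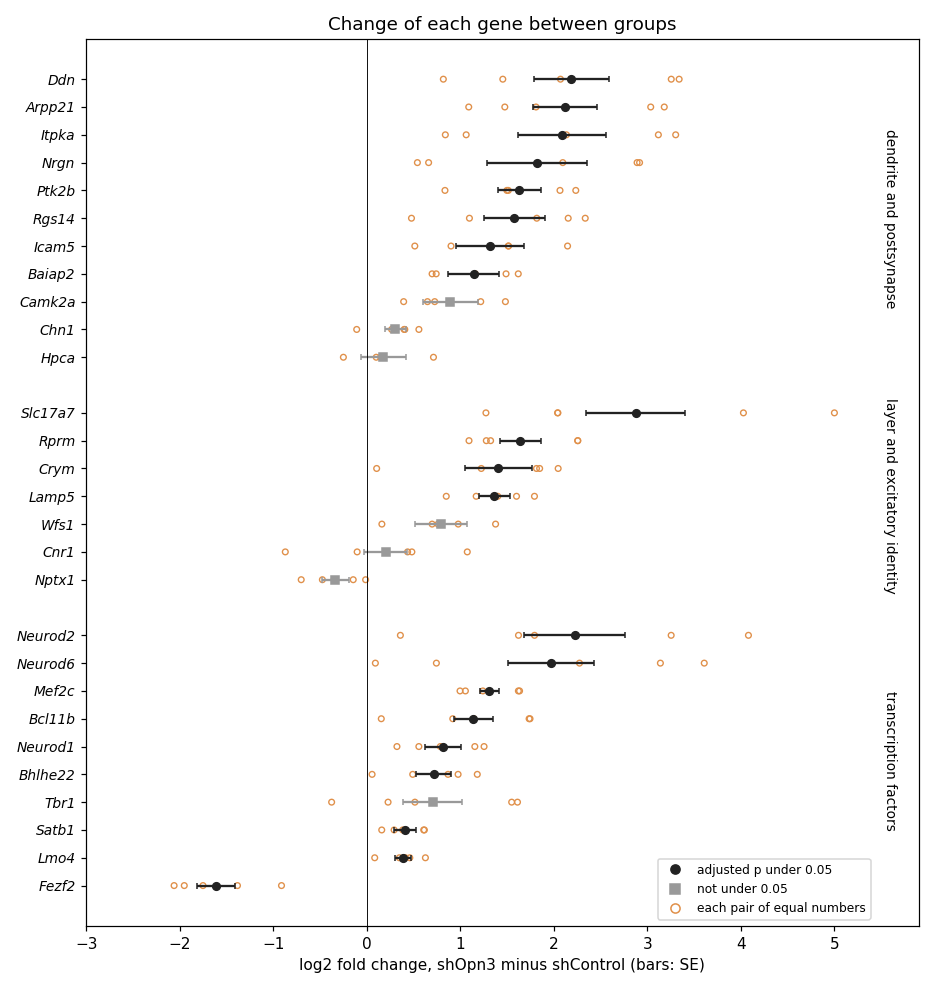
Log2 fold change (shOpn3 minus shControl, horizontal axis) of each gene with its SE, grouped by role, beside the 5 differences between samples of equal number (open circles). The values run from -1.61 for Fezf2 to 2.88 for Slc17a7, and black circles mark the 21 genes with an adjusted p under 0.05.

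Of the other 6 layer and identity genes tested besides Slc17a7, Rprm, Lamp5 and Crym rose. Rprm, the cell-cycle regulator reprimo that marks deep-layer neurons, had normalized counts of 216, 120, 109, 124 and 187 in shControl and of 526, 578, 525, 311 and 400 in shOpn3. Lamp5, a vesicle membrane protein of superficial-layer neurons and some interneurons, had 470, 249, 325, 301 and 450 in shControl and 848, 867, 987, 798 and 1015 in shOpn3. Neither gene had overlapping groups, and their log2 changes were 1.64 ± 0.221 and 1.36 ± 0.165 (adjusted p = 0.000575 and 0.000373 by limma). Crym, a thyroid hormone-binding protein, had 214, 97.7, 88.8, 80.5 and 350 in shControl and 502, 407, 315, 293 and 377 in shOpn3 (log2 change 1.41 ± 0.363, adjusted p = 0.0175 by limma). For Crym the groups overlapped, because shControl replicate 5 exceeded shOpn3 replicates 3 and 4.

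Wfs1, Cnr1 and Nptx1 did not pass. Wfs1, an endoplasmic reticulum protein, had 546 to 1240 normalized counts in shControl (median 583) and 926 to 1985 in shOpn3 (median 1387), higher in 5 of 5 pairs. Its log2 fold change of 0.80 (SE 0.279) had a limma adjusted p of 0.0677, and of 0.00552 with the replicate block. Without shControl replicate 1 or 5 or shOpn3 replicate 4 its adjusted p was 0.0315, 0.0273 and 0.0474. In 16 of 25 alternative fits Wfs1 stayed uncalled. Cnr1, the cannabinoid receptor of many nerve terminals, ranged from 2148 to 4519 in shControl and from 2471 to 5371 in shOpn3 (log2 change 0.20 ± 0.229, adjusted p = 0.584 by limma). Nptx1, a secreted pentraxin that gathers glutamate receptors at synapses, ranged from 1634 to 2751 in shControl and from 1397 to 1980 in shOpn3. It was lower in 5 of 5 pairs, with a log2 fold change of -0.34 ± 0.147 (SE; adjusted p = 0.137 by limma), and the call appeared with the replicate block (adjusted p = 0.0325). In 23 of 25 alternative fits Nptx1 stayed uncalled.

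Genes for proteins of dendrites and the postsynapse rose in 8 of 11 cases, and none fell. Ddn, which encodes the dendritic protein dendrin, had normalized counts of 1244, 364, 317, 547 and 1685 in shControl and of 3412, 3489, 3224, 2302 and 2973 in shOpn3. Arpp21, a cyclic AMP-regulated phosphoprotein, had 1461, 554, 480, 696 and 1787 in shControl and 4067, 5030, 3943, 2442 and 3807 in shOpn3. Itpka, an inositol trisphosphate kinase of dendritic spines, had 82.6, 18.3, 16.3, 27.2 and 110 in shControl and 174, 167, 170, 123 and 197 in shOpn3. In these genes the groups did not overlap, and in shControl the replicates 1 and 5 stood well above replicates 2, 3 and 4. The log2 fold changes were 2.19 for Ddn (SE 0.401), 2.12 for Arpp21 (SE 0.342) and 2.09 for Itpka (SE 0.470), with limma adjusted p of 0.00284, 0.00140 and 0.00866.

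Ptk2b, a calcium-activated tyrosine kinase of synapses and of myeloid cells, had 1542, 929, 812, 989 and 2092 normalized counts in shControl and 4360, 3895, 3829, 2825 and 3736 in shOpn3 (log2 change 1.63 ± 0.229, adjusted p = 0.000705 by limma). Rgs14, a regulator of G-protein signalling, had 229, 87.5, 78.6, 110 and 303 in shControl and 492, 393, 401, 392 and 422 in shOpn3 (log2 change 1.58 ± 0.327, adjusted p = 0.00564 by limma). Both genes showed no overlap, and Rgs14 was nearly level across the shOpn3 samples. Baiap2, an actin-linked scaffold of spines, had 540, 242, 205, 239 and 496 in shControl and 905, 682, 633, 535 and 805 in shOpn3 (log2 change 1.14 ± 0.269, adjusted p = 0.0111 by limma). Its only overlap came from shOpn3 replicate 4, just below shControl replicate 1.

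Nrgn, which encodes neurogranin, had 2420, 405, 299, 573 and 2427 normalized counts in shControl and 3829, 3066, 2224, 2453 and 3534 in shOpn3 (log2 change 1.82 ± 0.538, adjusted p = 0.0331 by limma). Icam5, the adhesion protein telencephalin of forebrain dendrites, had 390, 156, 105, 157 and 454 in shControl and 730, 447, 469, 451 and 648 in shOpn3 (log2 change 1.32 ± 0.361, adjusted p = 0.0233 by limma). In both genes, shControl replicate 5 exceeded at least 1 shOpn3 sample. The call of Nrgn was lost in edgeR and DESeq2 (adjusted p = 0.107 and 0.123), without shControl replicate 2, 3 or 4 (0.0824, 0.0661 and 0.0768) and without any shOpn3 replicate 1 to 5 (0.0628, 0.0594, 0.0542, 0.0508 and 0.0708). That of Icam5 was lost without shControl replicate 2 or 4 or shOpn3 replicate 5 (adjusted p = 0.0595, 0.0580 and 0.0560), and the direction held in all of these fits.

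Camk2a, the calcium/calmodulin-dependent kinase subunit of excitatory synapses, lay just outside the threshold. It had 3922, 1792, 1540, 1750 and 3544 normalized counts in shControl and 6491, 5010, 3586, 2745 and 4659 in shOpn3. The groups overlapped, although shOpn3 was higher in 5 of 5 pairs (log2 change 0.89 ± 0.291, adjusted p = 0.0502 by limma, and 0.00327 with the replicate block). Without shControl replicate 1 or 5 or shOpn3 replicate 4 its adjusted p was 0.0198, 0.0281 and 0.0277, and the authors' deposited table gave 0.0207. In 13 of 25 alternative fits Camk2a stayed uncalled. Chn1, a regulator of the GTPase Rac, ranged from 7407 to 9271 in shControl and from 8004 to 12649 in shOpn3 (log2 change 0.30 ± 0.113, adjusted p = 0.0813 by limma, 0.0397 with the replicate block and 0.0132 without shOpn3 replicate 4). It stayed uncalled in 19 of 25 alternative fits. Hpca, the calcium sensor hippocalcin, ranged from 1082 to 2040 and from 928 to 2188 (log2 change 0.18 ± 0.242, adjusted p = 0.664 by limma).

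Many of the 28 genes shared an order of the control samples. In shControl, replicates 1 and 5 both lay above replicates 2, 3 and 4 for 16 of the 28 genes, against 32.6% of all genes tested. This held for 10 of the 11 dendritic and postsynaptic genes, for 5 of the 7 layer and identity genes and for 1 of the 10 transcription factors, Mef2c. Of the dendritic group Chn1 was the exception. Nrgn in shControl replicates 1 and 5, at 2420 and 2427 normalized counts, reached the range of the shOpn3 samples. Replicates 1 and 5 were instead the lowest controls for 5 of the 28 genes, Tbr1, Fezf2, Neurod1, Cnr1 and Chn1, against 30.2% of all genes tested. In shOpn3, replicates 1 and 5 both lay above replicates 2, 3 and 4 for 7 of the 28 genes (18.3% of all genes tested).

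Replicate 4 was the lowest shOpn3 sample for 22 of the 28 genes, against 22.8% of all genes tested. That library also had the lowest shOpn3 sum of the 12 pan-neuronal markers, 148857 normalized counts where the others held 198815 to 255917, and the highest sum of microglial markers, 77785. Its part in the differences between groups was not tested beyond leaving it out, after which 23 of the 28 genes were called (16.2% of all genes). The spread of the log2 values was larger in shControl than in shOpn3 for 21 of the 28 genes, against 58.9% of all genes tested. The median difference of the 28 genes within pairs was 0.95, 1.57, 1.63, 0.71 and 0.72 on the log2 scale for numbers 1 to 5, with 26, 26, 25, 22 and 26 genes higher in shOpn3. Over all genes tested the median differences within pairs lay between -0.028 and -0.0018. The share of all genes higher in each single pair was not counted. With replicates 1 and 5 of both groups left out, 20 of the 28 genes were called, 19 higher and Fezf2 lower (22.0% of all genes). This alternative was chosen after the values were seen. In it the calls of Satb1, Neurod1 and Bhlhe22 were lost (limma adjusted p = 0.129, 0.111 and 0.0675). Those of Camk2a and Wfs1 were gained (limma adjusted p = 0.00617 and 0.00461). The log2 fold change was 3.43 for Slc17a7 and 0.12 for Tbr1, which was not called.

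**Figure D3:**
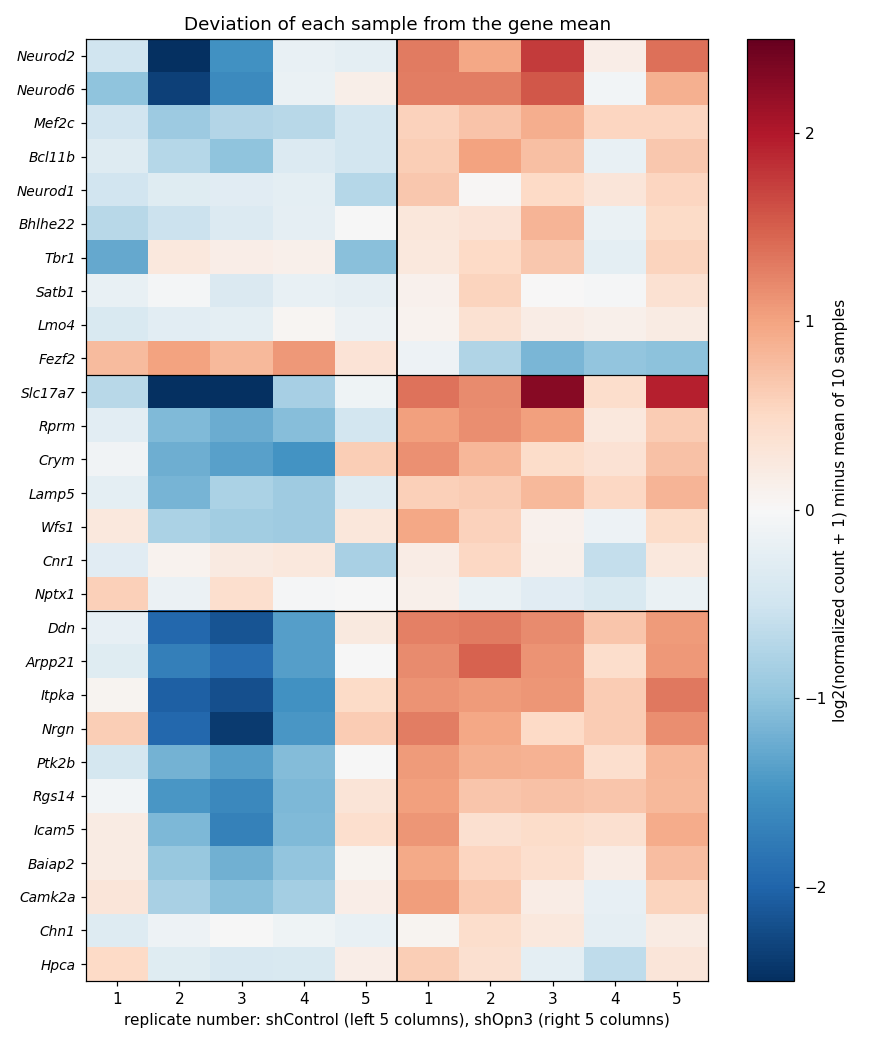
Deviation of each sample from the mean of the gene over all 10 samples, on the log2(normalized count + 1) scale, with genes as rows grouped by role and samples as columns (colours end at 2.5 in either direction). Apart from Chn1, the dendritic genes are higher in shControl replicates 1 and 5 than in replicates 2 to 4, and shOpn3 replicate 4 is the palest shOpn3 column, being the lowest of its group for 22 genes.

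Other genes of projection neurons of the pallium, the part of the forebrain that forms cortex and hippocampus, were taken from a separate list. Of 24 such genes tested, 10 rose, 1 fell and 13 did not pass, with a median log2 fold change of 0.36. The peptide gene Cck and the potassium channel subunit Kcnv1 rose, with mean normalized counts of 125 ± 79.1 and 427 ± 63.0 for Cck and of 166 ± 54.3 and 576 ± 115 for Kcnv1 (SD, n = 5 each, shControl first). Their log2 fold changes were 1.98 and 1.82 (SE 0.346 and 0.218), and for neither gene did the groups overlap. Dkk3, a secreted glycoprotein, fell (log2 change -0.29 ± 0.0907, adjusted p = 0.0427 by limma). The cortical factor Emx1 had a mean of 6.04 normalized counts in shControl and 9.41 in shOpn3 and was too low to be tested. The count of 11 genes called fell to 7 without shControl replicate 2 or 4 or shOpn3 replicate 5 (14.8%, 15.0% and 14.8% of all genes called), and to 6 without shOpn3 replicate 3 (12.7%). It was also 6 when scaled to pan-neuronal genes, as described next.

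Against these values, 12 pan-neuronal markers had a median log2 fold change of 0.20, with 2 higher, 2 lower and 8 not called. Leaving out single libraries moved that count of 4 to 2 (shControl replicate 1, 2 or 4, or shOpn3 replicate 5) or 1 (shOpn3 replicate 3). The count was 3 without shControl replicate 5 or shOpn3 replicate 1 or 2, and 5 without shOpn3 replicate 4. When each sample was divided by the geometric mean of these pan-neuronal markers, 16 of the 28 genes were still called, 15 higher and Fezf2 lower, while 7.55% of all genes were. All 12 markers weighed equally in this scaling, among them Eno2 with a mean of only 11.6 normalized counts over all samples. Of the pan-neuronal genes themselves 2 were called on that scale. On that scale the calls of Satb1, Neurod1, Bhlhe22, Lmo4 and Icam5 were lost (limma adjusted p = 0.269, 0.101, 0.112, 0.332 and 0.0515), and Slc17a7 had a log2 fold change of 2.80 (limma adjusted p = 0.00222). Whether the lists differ from each other was not tested.

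**Figure D4:**
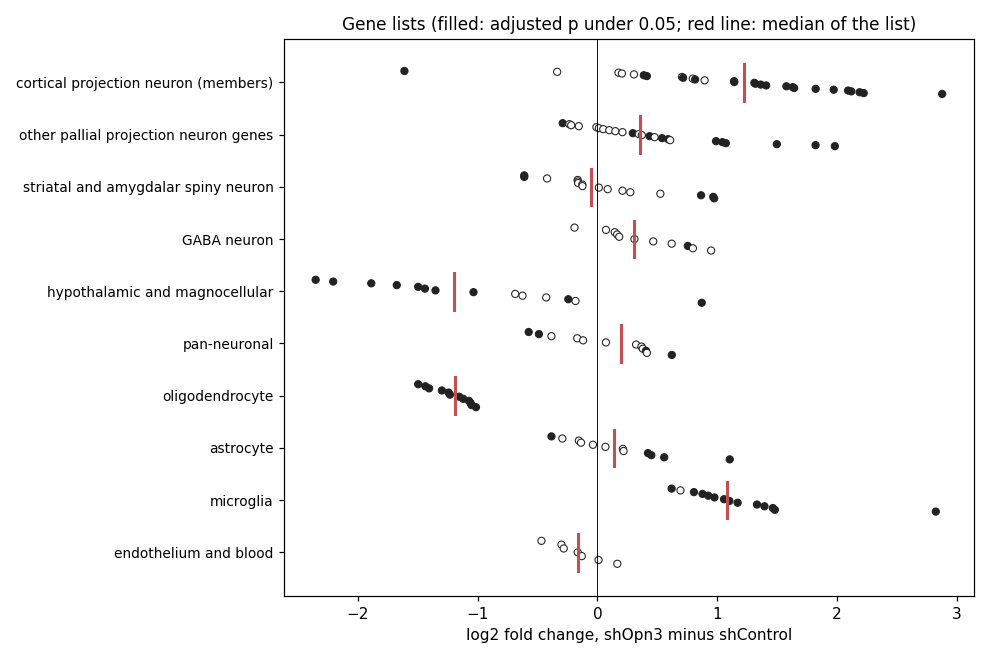
Log2 fold change (horizontal axis, shOpn3 minus shControl) of every tested gene of each list, with filled points for an adjusted p under 0.05 and a red line at the median of the list. The medians are 1.23 for the 28 cortical projection neuron genes, 0.36 for the other pallial genes, 0.20 for pan-neuronal genes and -1.19 for both the hypothalamic and the oligodendrocyte genes.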

How the data were processed

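Per the submitters' processing notes, the authors used FastQC, STAR, featureCounts and DESeq2; versions, genome build, annotation and strand setting were not given in the sources used here, so overlapping and antisense genes are uncertain. The deposited signal values are read counts that the authors divided by 1 size factor per sample. Every value came out as a whole number of reads once the worth of 1 read in its sample was found (100% within a tolerance of 0.01), so whole reads were recovered. Per the file headers, the authors' log2 fold changes, Wald score, p-values and adjusted p-values stand in the same deposited table.

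Values were analysed as log2(normalized count + 1), a scale on which changes of genes with few reads come out too small. The 15597 genes with a mean of at least 10 were fitted with limma 3.58.1 (R 4.3.3; eBayes with trend) on the group alone, two-sided, with Benjamini-Hochberg adjustment over all of them and a threshold of 0.05; SE is that of limma. The script was tested on simulated data. Single genes also had an exact two-sided permutation test over 252 splits. Alternatives were other pseudocounts, filters and scalings, edgeR 4.0.16 (which called 3025 genes on the recovered reads), DESeq2 1.42.0, limma-voom with sample weights, robust eBayes, the replicate block, and leaving out samples. The labels say that each rat had both viruses. After subtracting group means, samples with equal numbers were positively correlated over genes in each of the 5 pairs (r from 0.121 to 0.439), so the numbers were taken to pair the samples. The main limma fit and the exact permutation test did not use this pairing and treat the samples as independent. Only the replicate block and the differences within pairs used the pairing, and their results rest on that assumption.

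The genes, their roles and the other lists were chosen with earlier results of these data known. Values in every sample are printed for members with an adjusted p under 0.05 and for Slc17a7, Tbr1, Neurod6, Fezf2 and Camk2a, and up to 3 genes in each direction are named from each other list; some genes that this rule takes are not reported here. Sequences come from RefSeq (GRCr8); the build of the counts was not given, and no gene lengths were used, so levels are not compared between genes.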

Additional observations from a re-analysis of the deposited data

How the results depend on the processing

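Of 696 values that the 28 genes took in 25 alternatives, 634 kept both direction and call status, 31 lost the call, 29 gained it and 2 reversed. The reversals were those of Cnr1, which was not called, at -0.18 with replicates 1 and 5 of both groups left out, without and with the replicate block. Of the 21 genes called, 13 were called in every alternative that could test them. The number of the 28 genes called lay between 16 and 25 (18 to 23 without 1 library). The number of all genes called, 2940, was 1177 after scaling to pan-neuronal genes, 5085 with limma-voom and sample weights, 4726 with the replicate block in limma and 4777 with the replicate block in edgeR, and 1973 to 3057 without 1 library. The block changed the call of 4 of the 28 genes (Camk2a, Wfs1, Chn1 and Nptx1, all gained) and of no other. The calls of the other lists, 61 in all, lay between 42 and 77. Opn3 kept its call throughout, with log2 fold changes from -2.31 to -1.66. Depth limits Neurod2, with 0 to 7 reads in the shControl samples.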

Other observations

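Other neurons of the forebrain gave a mixed picture in the same samples. Of 16 striatal and amygdalar spiny neuron genes, 3 rose, 2 fell and 11 did not pass, with a median log2 change of -0.06. The count of 5 called was 9 with limma-voom and sample weights. Mean normalized counts of Drd1, a dopamine receptor, rose to 582 ± 57.8 from a control level of 300.2 ± 57.8 (SD, n = 5 each; adjusted p = 0.000603 by limma). The homeobox factor Meis2 had mean normalized counts of 1286 ± 317 and 2329 ± 494 (adjusted p = 0.00951 by limma). Rgs9, a regulator of G-protein signalling, and the adenosine receptor gene Adora2a both fell, by 0.61 on the log2 scale (SE 0.107 and 0.159). Of 11 genes of GABA neurons tested, the homeobox gene Dlx5 alone was called, with 41.6 ± 10.2 and 69.8 ± 12.4 (SD, n = 5 each; adjusted p = 0.0241 by limma), and that count of 1 varied from 0 to 3 over the alternatives. It was 0 without shOpn3 replicate 1 or 5, 2 without shControl replicate 1 and 3 without shOpn3 replicate 4. Npy was not tested, since its row held 0 reads in every sample, where the limit that 0 reads allow is 3 reads. Whether that row could collect Npy reads was not checked, so it is not taken as absence of the transcript.

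Of 14 hypothalamic and magnocellular genes, 9 fell, 1 rose and 4 did not pass (median log2 change -1.19). Pou3f2, a POU factor of magnocellular neurons, fell to 218 ± 65.9 normalized counts from a control level of 604 ± 84.7, and the peptide gene Gal to 358 ± 105 from 896 ± 151 (SD, n = 5 each; adjusted p = 0.000306 and 0.000796 by limma). Nkx2-1, a homeobox factor of the ventral hypothalamus, rose from 39.8 ± 6.28 to 74.6 ± 18.7 (adjusted p = 0.00874 by limma). All 12 oligodendrocyte genes fell, Mog from 11089 ± 2397 to 4517 ± 960, and 13 of 14 microglial genes rose, Cd68 from 111 ± 18.1 to 816 ± 274 (SD, n = 5 each). Of 12 astrocyte genes 4 rose and 1 fell, and Gfap had 54392 ± 19325 and 115489 ± 32541 (SD, n = 5 each; adjusted p = 0.0104 by limma). When scaled to pan-neuronal genes, limma called 0 of the 12 astrocyte genes, where 3 had an unadjusted p under 0.05, while edgeR and DESeq2 without that scaling called 5 each.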
